A study of Arabidopsis thaliana with 12 samples.

Results

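UFO, CLV3, ULT1 and PHV are regulators of the shoot apex and the flower. They were chosen by name and are 4 of the 13356 genes tested. Each was read by 1 probe set of the Affymetrix ATH1 array, and none of these 4 probe sets was shared with another gene. All values are log2 MAS5 signals, the summary that MAS5 computes from the probes of a probe set.

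The plants were whole Arabidopsis thaliana seedlings of the Columbia ecotype, 14 days old, grown at 22°C with 16 h of light and 8 h of darkness. Each of 4 genotypes was hybridised to 3 of the 12 arrays, as biological replicates. These were the wild type, Col, the single mutants brm-1 and clf-29, and the plants that carry both mutations, brm-1 clf-29. Both alleles are T-DNA insertions, and brm-1 is described in the study as a null allele of the SWI2/SNF2 chromatin remodeler BRM. CLF is a methyltransferase that places H3K27me3, a histone mark of repressed genes. The comparisons ask which transcripts shift in the absence of BRM, of CLF, or of both proteins.

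The shoot apical meristem keeps a small pool of stem cells from which leaves and later flowers arise. CLV3 encodes a small secreted peptide that these stem cells make, and its perception by receptor kinases such as CLV1 limits the expression of the stem cell promoting gene WUS. UFO encodes an F-box protein, a part of a ubiquitin ligase, which works with the transcription factor LEAFY in floral meristems and helps to turn on the petal and stamen gene AP3. ULT1 encodes a SAND domain protein of the trithorax group, which limits meristem activity and opposes Polycomb repression at the floral gene AG. PHV encodes a class III homeodomain leucine zipper transcription factor, which sets the upper side of leaves and supports the meristem, and whose transcript is a target of the microRNA miR166.

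Most of a whole seedling is leaf, stem and root, so genes of the apex are measured in a large excess of other tissue. In such material fewer cells of a type and less RNA per cell cannot be told apart. The leaf genes RCA and LHCB4.1 lay between 14.19 and 14.69 on all arrays, and the root genes PYK10 between 13.50 and 14.28, EXPA7 between 7.40 and 8.49 and EXPA18 between 8.27 and 9.86. PYK10 and EXPA18 differed in opposite directions between clf-29 and brm-1 (0.51 ± 0.13 and -0.46 ± 0.29, SE), neither past the test. The meristem genes STM, WUS and CLV1 and the floral organ genes AP1, AP3, PI, AG, SEP1, SEP2, SEP3 and SUP were not analysed here. None of the 5 measured leaf and root markers passed the test in any of 7 comparisons (lowest adjusted p = 0.0652, limma with Benjamini-Hochberg adjustment over all genes). Replicate 3 of every genotype stood apart, with scores from -22.25 to -12.16 on the first principal component, where the scores of the 8 remaining arrays ran from -5.76 to 21.44. Fits that set replicate 3 as a batch, or used only replicates 1 and 2, are therefore given where they differ. With 1 array of each genotype, replicate 3 allows no test by itself.

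The members formed a dim and a bright pair. Background was taken as the 95th percentile, 4.71, of the 324 values of 27 probe sets for Bacillus subtilis control transcripts, whose median was 2.79. CLV3 lay under it on all 12 arrays (0.42 to 4.11). UFO lay under it in Col, brm-1 and brm-1 clf-29 by its mean and over it in clf-29. ULT1 (7.78 to 9.04) and PHV (8.64 to 9.29) lay far above it on every array. Of the 16 means of a member in a genotype, 7 were under background. For comparison, 26.8% of the means of all genes were.

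**Figure D1:**
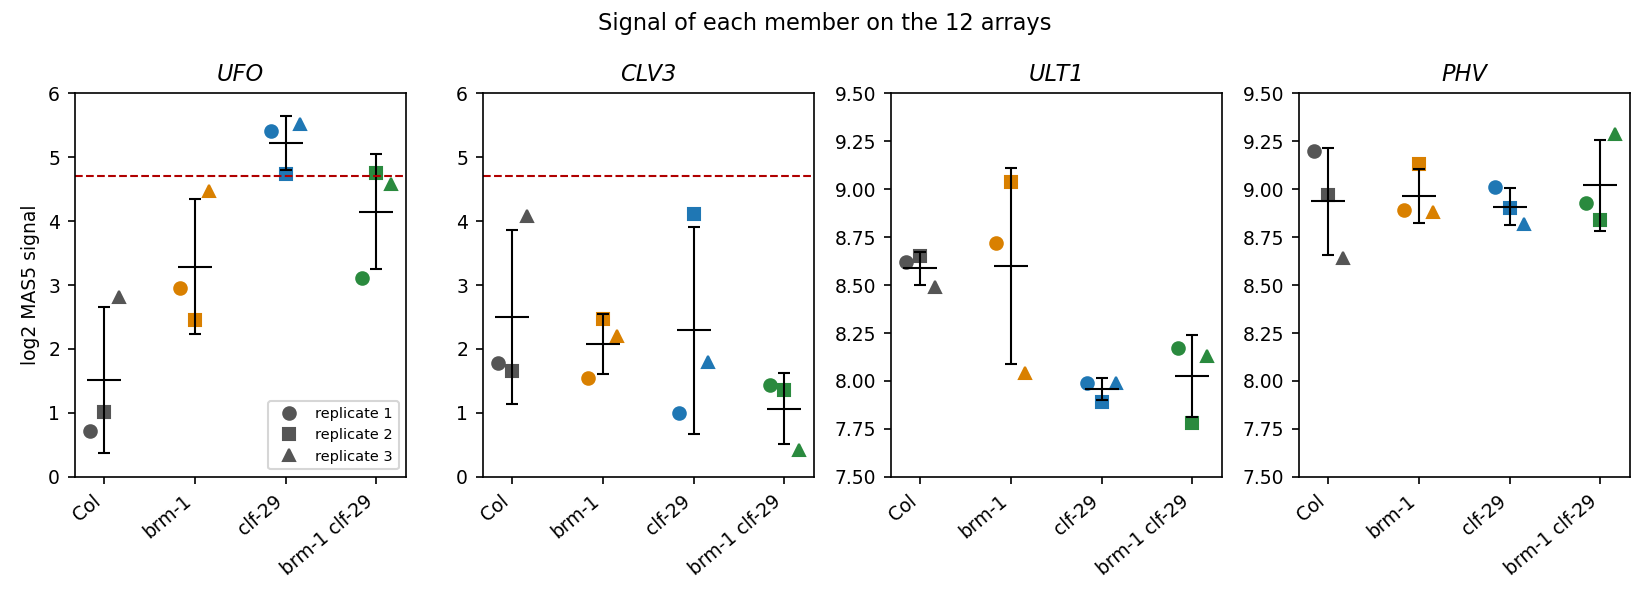
Log2 MAS5 signal (y axis) of UFO, CLV3, ULT1 and PHV on the 12 arrays by genotype (x axis), with a symbol per replicate and a bar for the mean ± SD of 3 arrays. The dashed line is the background of 4.71, the y axes of ULT1 and PHV start at 7.5, and the 3 clf-29 arrays of UFO (4.74 to 5.52) lie above all 6 arrays of Col and brm-1.

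UFO, the F-box gene, was highest in clf-29. In Col its values were 0.72, 1.01 and 2.82 in replicates 1, 2 and 3, all under background. In brm-1 they were 2.95, 2.45 and 4.47, also all under background. In clf-29 they were 5.41, 4.74 and 5.52, all above it. Replicate 2 was only just above it, and under the 95th percentile of the controls on its own array (5.02). The clf-29 arrays did not overlap with those of Col or of brm-1. In brm-1 clf-29 the values were 3.11, 4.76 and 4.58, so 1 of 3 arrays was above background.

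UFO rose in clf-29 against Col (mean 5.22 ± 0.42 against 1.52 ± 1.14, SD, n = 3, limma adjusted p = 0.043). It was the only member called in any of the 7 comparisons. Because Col was under background, the size of the rise has only a lower bound: the clf-29 mean was at least 1.43-fold over the background level. The difference between the measured means, 3.71 ± 0.76 (SE), includes Col values that cannot be told from background. Of all genes, 0.547% rose in this comparison and 0.943% were called in either direction, and the arrays of 8.81% of genes were higher without overlap. UFO was 113th of the 126 called genes by p, close to the threshold. With the replicate number as a block 465 genes (3.48%) were called in either direction, and UFO passed as well (adjusted p = 0.0134).

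The call for UFO was sensitive to single arrays. It was kept in 3 of 12 fits that left out 1 array each: those without Col replicate 3 (adjusted p = 0.0318), without brm-1 replicate 3 (0.0321) and without brm-1 clf-29 replicate 3 (0.0493). Without Col replicate 1 or 2, the arrays on which UFO was lowest, the limma adjusted p was 0.17 and 0.168. Without clf-29 replicate 1, 2 or 3 it was 0.137, 0.117 and 0.0927. Without brm-1 replicate 1 or 2 it was 0.0693 and 0.054, and without brm-1 clf-29 replicate 1 or 2 it was 0.0506 and 0.0577. Over all 12 arrays 0.943% of genes were called in either direction. In the 3 fits that kept UFO the shares were 0.621%, 1.17% and 1.21%, in the order given. Without Col replicate 1 or 2 they were 0.329% and 0.344%. Without clf-29 replicate 1, 2 or 3 they were 0.359%, 0.329% and 1.3%. Without brm-1 replicate 1 or 2 they were 0.681% and 0.719%, and without brm-1 clf-29 replicate 1 or 2 they were 0.644% and 0.771%. The difference of UFO stayed between 3.31 and 4.36 in all 12. Within replicates 1 and 2 the means of UFO were 0.86 in Col and 5.08 in clf-29 (limma adjusted p = 0.0227). In that fit 5.5% of all genes were called in either direction, against 0.943% over all 12 arrays. In replicate 3 the values of UFO were 2.82 and 5.52.

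The 27 control probe sets of the same array give a second view of these low signals. In clf-29 UFO was brighter than 27 of the 27 in replicate 1, than 24 in replicate 2 and than 27 in replicate 3. In Col it was brighter than 3, 6 and 12 of them, in the order of the replicates. In brm-1 it was brighter than 16, 11 and 25, and in brm-1 clf-29 than 16, 26 and 24. Hence 2 of the 12 arrays, both of clf-29, had a UFO signal above every control on its array. With the second highest of all control values (5.40) as the background, the clf-29 mean of UFO would lie under it too.

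**Figure D2:**
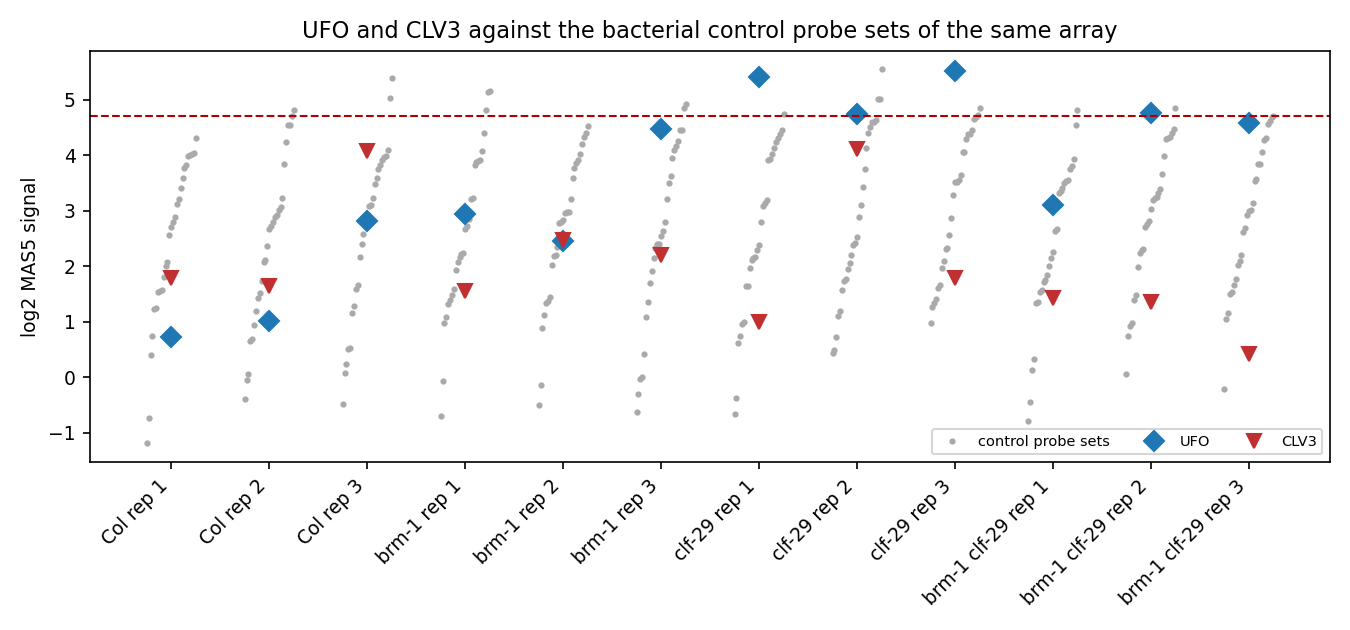
Log2 MAS5 signal (y axis) of UFO (diamonds), CLV3 (triangles) and the 27 bacterial control probe sets (grey points, sorted) on each of the 12 arrays (x axis), with the background of 4.71 dashed. UFO stands above all 27 controls in clf-29 replicates 1 and 3, and CLV3 stays within the controls of its array throughout.

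With both genes lost, UFO lay between the levels of the single mutants. Its mean in brm-1 clf-29 was 4.15 ± 0.91 (SD, n = 3), under background, so no fold against Col is given. The 3 arrays did not overlap with Col, as was the case on the higher side for 11% of genes, but the comparison did not pass the test (limma adjusted p = 0.0708, where 2.4% of genes rose). It passed with the replicate block (adjusted p = 0.0322), with replicate 3 as a batch term (0.0225), with array weights (0.0354) and without Col replicate 3 (0.0443), and over all settings other than left-out arrays the adjusted p ranged from 0.0225 to 0.144. These settings called more genes in general: 4.99% of all genes were called in either direction in the fit without them, 10.4% with the block, 11.6% with the batch term and 9.73% with array weights, but 3.21% without Col replicate 3. Within replicates 1 and 2 it was 0.0584.

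From the lowest mean to the highest, the order of UFO was Col, brm-1, brm-1 clf-29 and clf-29. Only clf-29 was above background by its mean, so the order of the other three is one among values that cannot be told from background. No neighbours in this order differed beyond their spread by the test. For brm-1 against Col the adjusted p was 0.343 (unadjusted p = 0.0381, limma; 0.696% of genes rose). For brm-1 clf-29 against brm-1 it was 0.781 (0.157% rose), and for brm-1 clf-29 against clf-29 0.629 (0.981% fell). The clf-29 arrays were also higher than those of brm-1 without overlap, which held for 9.87% of genes (adjusted p = 0.257, 1.76% rose).

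Whether loss of CLF shifted UFO differently with and without BRM was read from the interaction. In the fit the shift was 3.71 ± 0.76 in the presence of BRM and 0.86 ± 0.76 in its absence, a difference of -2.85 ± 1.08 (SE, 95% confidence interval from -5.19 to -0.50). It did not pass the test (limma adjusted p = 0.862, unadjusted p = 0.0214), nor did any gene (0 of 13356 called by limma, or 0%, with 754 at an unadjusted p under 0.05). All but 1 of the 4 means in it were under background.

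**Figure D3:**
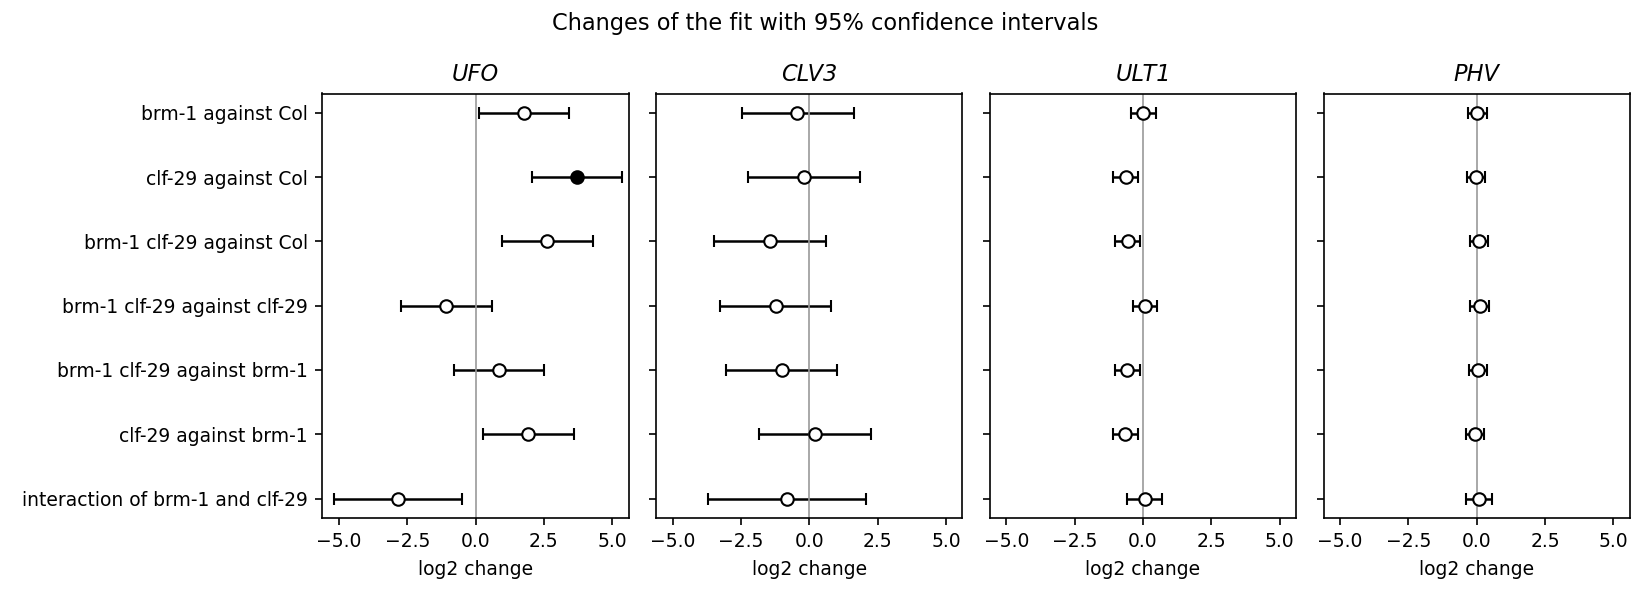
Log2 change (x axis) of each member in the 7 comparisons (y axis) with the 95% confidence interval of the limma fit over 12 arrays, filled where the adjusted p was under 0.05. Only UFO in clf-29 against Col is filled, and the intervals of UFO and CLV3 are several times as wide as those of ULT1 and PHV.

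CLV3, the stem cell peptide, gave no signal above background in any genotype. Its values were 1.78, 1.65 and 4.08 in Col, and 1.55, 2.47 and 2.21 in brm-1. In clf-29 they were 0.99, 4.11 and 1.79, and in brm-1 clf-29 they were 1.43, 1.35 and 0.42. The highest single arrays belonged to Col replicate 3 and clf-29 replicate 2, and even these were brighter than only 24 and 18 of the 27 controls on their arrays. No fold is given for CLV3, since both sides of every comparison were under background.

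The means of CLV3 were 2.50 ± 1.37 in Col, 2.30 ± 1.62 in clf-29, 2.08 ± 0.47 in brm-1 and 1.07 ± 0.56 in brm-1 clf-29 (SD, n = 3). Its arrays in brm-1 clf-29 lay under those of Col and of brm-1 without overlap, as for 12.8% and 6.28% of all genes on that side. In the 7 comparisons its adjusted p lay between 0.478 and 0.969 (limma), and none reached an unadjusted p under 0.05. These signals do not show whether CLV3 transcripts were present, nor that their level was the same in the 4 genotypes.

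ULT1, the trithorax group gene, was well measured and had lower means in both genotypes with the clf-29 mutation, by amounts that did not pass the test. Its values were 8.62, 8.65 and 8.49 in Col. They were 8.72, 9.04 and 8.04 in brm-1. In clf-29 they were 7.99, 7.89 and 7.99, and in brm-1 clf-29 8.17, 7.78 and 8.13. The clf-29 arrays were thus all under those of Col, as for 9.21% of genes. So were the brm-1 clf-29 arrays, as for 12.8%. The share of genes with both was not counted. The array of brm-1 replicate 3 fell among the 6 arrays with the clf-29 mutation.

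In clf-29 the mean of ULT1 was 7.96 ± 0.06 against 8.59 ± 0.09 in Col (SD, n = 3), a difference of -0.63 ± 0.21 (SE, 95% confidence interval from -1.08 to -0.18). This is 1.55-fold lower, past the 1.5-fold criterion that the study used without a test and that 10.3% of genes met on this side. The limma adjusted p was 0.225 (unadjusted p = 0.0102), where 0.397% of genes fell, and 9.21% of genes were lower without overlap. In brm-1 clf-29 the mean was 8.03 ± 0.21, 1.47-fold lower than in Col (-0.56 ± 0.21, interval from -1.01 to -0.11, adjusted p = 0.161). There 2.59% of genes fell, and 12.8% were lower without overlap. The comparisons share the Col arrays.

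Against brm-1, whose mean was 8.60 ± 0.51, the differences of ULT1 were of like size. For clf-29 the difference was -0.64 ± 0.21 (limma adjusted p = 0.146, where 1.06% of genes fell and 8.09% were lower without overlap, as ULT1 was), and for brm-1 clf-29 it was -0.57 ± 0.21 (adjusted p = 0.363, 0.0599% fell). The mean in brm-1 differed from Col by 0.01 ± 0.21 (interval from -0.44 to 0.47), and that in brm-1 clf-29 from clf-29 by 0.07 ± 0.21 (interval from -0.38 to 0.52). The interaction was 0.06 ± 0.29 (adjusted p = 0.994).

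The test of ULT1 depended in part on replicate 3 of brm-1, the array at 8.04. Without it ULT1 was called for clf-29 against brm-1 (-0.92, limma adjusted p = 0.0086) and for brm-1 clf-29 against Col (-0.56, 0.0356). It was still not called for clf-29 against Col (0.0533) or for brm-1 clf-29 against brm-1 (-0.85, 0.06). With only the compared genotypes fitted, clf-29 against Col was not called either (0.0659). Within replicates 1 and 2, ULT1 was called as lower in all 4 of these comparisons: clf-29 against Col (-0.69, adjusted p = 0.0287), brm-1 clf-29 against Col (-0.66, 0.0214), clf-29 against brm-1 (-0.94, 0.00457) and brm-1 clf-29 against brm-1 (-0.91, 0.0144). Calls rose among all genes too, in the same order to 5.50%, 11.4%, 6.81% and 2.69% in either direction, from 0.943%, 4.99%, 2.82% and 0.217% over all 12 arrays. Without brm-1 replicate 3 the shares were 2.27% for clf-29 against brm-1 and 5.77% for brm-1 clf-29 against Col. With replicate 3 as a batch term it was called in none of them (0.0836 for clf-29 against Col). In replicate 3 alone the values were 8.49 in Col, 8.04 in brm-1, 7.99 in clf-29 and 8.13 in brm-1 clf-29. For clf-29 against Col, the adjusted p over all settings other than left-out arrays ranged from 0.0287 to 0.353.

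Averaging over plants with and without BRM puts 6 arrays on each side of the clf-29 mutation, a comparison chosen after seeing the data. UFO had a mean of 4.69 on the arrays with clf-29 (3.11 to 5.52) and 2.40 on those without (0.72 to 4.47), a difference of 2.28 ± 0.54 (SE, limma adjusted p = 0.0483, where 1.24% of genes rose). The arrays without clf-29 were all under background, so this size too rests on values there. Leaving out 1 array kept that call in 2 of 12 fits, without Col replicate 3 (0.0306) and without brm-1 replicate 3 (0.0328), and otherwise gave up to 0.116. ULT1 had means of 7.99 (7.78 to 8.17) and 8.59 (8.04 to 9.04), a difference of -0.60 ± 0.15 (adjusted p = 0.0566, 1.13% fell). With the replicate block ULT1 was called (adjusted p = 0.0222) and UFO stayed called (0.0172), while the share of all genes called in either direction went from 2.37% to 6.38%. Without brm-1 replicate 3, the array at 8.04, ULT1 was called as well (0.00317), in 1 of 12 fits that left out 1 array. The others gave up to 0.129. The share of all genes called was not counted in the fits that left out 1 array. PHV differed by 0.01 ± 0.11. The arrays with brm-1 and those without differed by 0.04 ± 0.15 in ULT1 and by 0.07 ± 0.11 in PHV (adjusted p = 0.931 and 0.821).

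**Figure D4:**
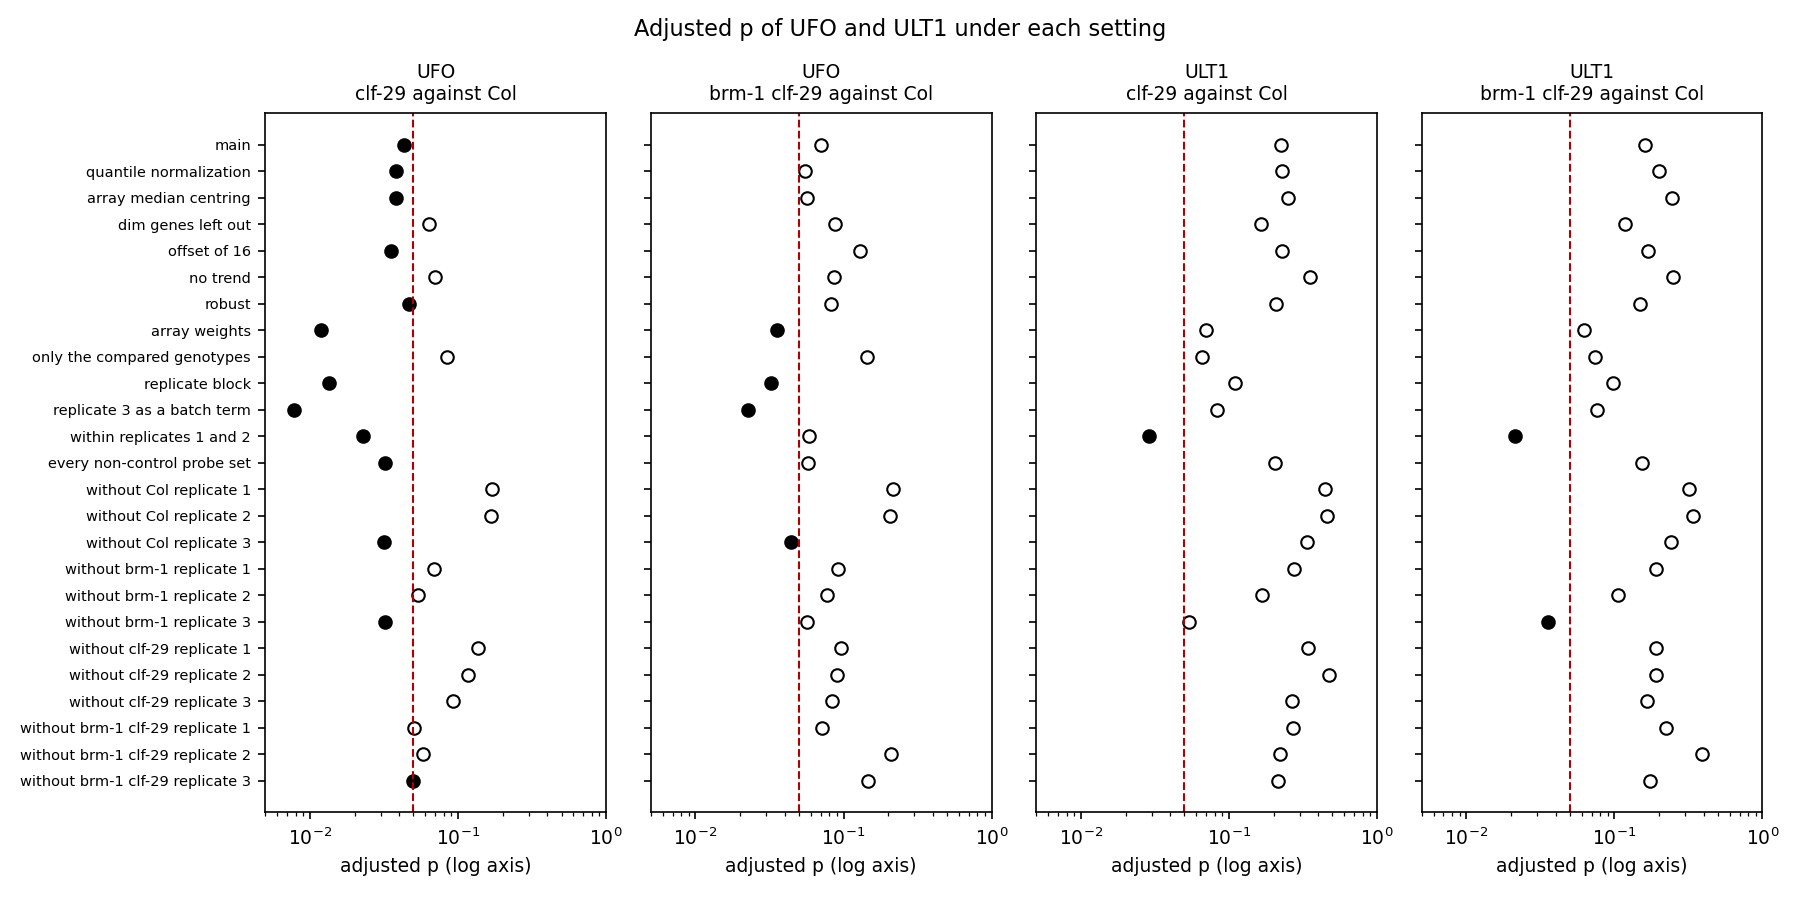
Adjusted p (x axis, log scale, with 0.05 dashed) of UFO and ULT1 in clf-29 against Col and brm-1 clf-29 against Col under each setting of the fit (y axis), filled where it was under 0.05. UFO in clf-29 crosses the line in both directions (0.00785 to 0.17), and ULT1 in clf-29 passes it only within replicates 1 and 2.

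PHV, the leaf polarity transcription factor, varied least among the 4 members. Its values were 9.20, 8.97 and 8.64 in Col, and 8.89, 9.13 and 8.88 in brm-1. In clf-29 they were 9.01, 8.90 and 8.82, and in brm-1 clf-29 8.93, 8.84 and 9.29. The arrays of every pair of genotypes overlapped, and the lowest and the highest array were both of replicate 3, in Col and in brm-1 clf-29.

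The means of PHV lay between 8.91 ± 0.10 in clf-29 and 9.02 ± 0.24 in brm-1 clf-29, with 8.94 ± 0.28 in Col and 8.97 ± 0.14 in brm-1 (SD, n = 3). No neighbours in this order differed by the test. Against Col the differences were 0.03 ± 0.16 in brm-1, -0.03 ± 0.16 in clf-29 and 0.08 ± 0.16 in brm-1 clf-29. The 95% confidence intervals of the 6 comparisons between genotypes together ran from -0.40 to 0.45 on the log2 scale, and the adjusted p-values of all 7 tests from 0.855 to 0.985 (limma). Larger shifts of PHV transcript over the whole seedling lay outside these intervals, and a shift in the few cells of the apex could not be seen in them.

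The precision behind these statements followed the level of the gene. Within genotypes the SD was 0.92 for UFO and 1.12 for CLV3, and 0.28 for ULT1 and 0.20 for PHV. Genes within 0.5 of their mean level had median SDs of 1.30 (1139 genes) for UFO, 1.29 (869) for CLV3, 0.20 (2087) for ULT1 and 0.18 (1947) for PHV. So UFO and CLV3 were no noisier than other genes at background level. ULT1 was somewhat noisier than its peers over the 4 genotypes together, but not in each of them. The SD of ULT1 was 0.51 in brm-1, where replicate 3 was at 8.04. In Col, clf-29 and brm-1 clf-29 it was 0.09, 0.06 and 0.21.

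**Figure D5:**
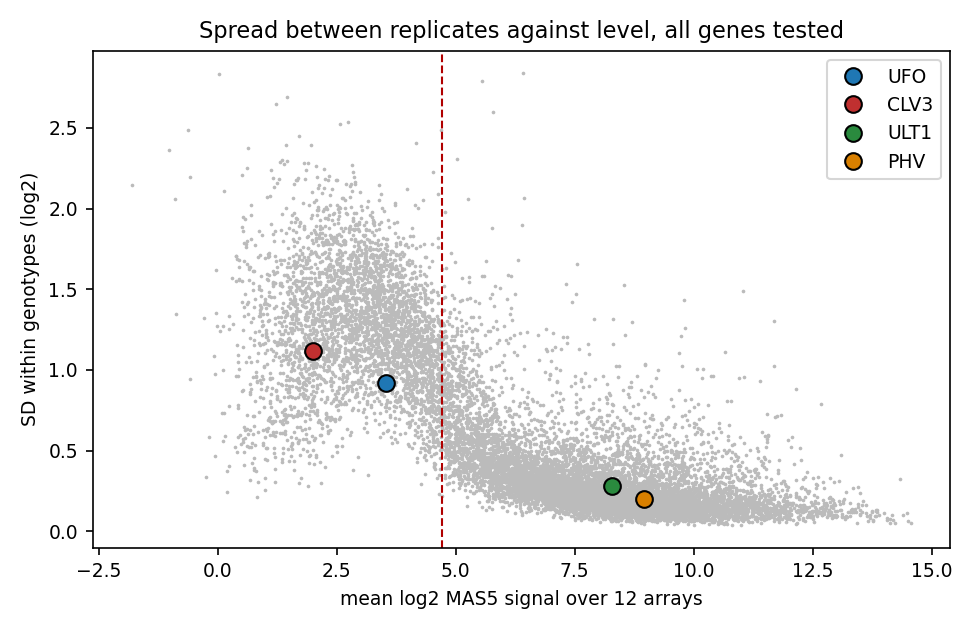
Within-genotype SD (y axis, log2) against the mean log2 MAS5 signal over 12 arrays (x axis) for the 13356 genes tested (grey) and the 4 members (coloured), with the background of 4.71 dashed. UFO (SD 0.92) and CLV3 (1.12) lie in the wide cloud under background, and ULT1 (0.28) and PHV (0.20) in the narrow band above it.

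Few genes of the pathways around the members could be read. Of 63 genes in 5 lists (CLAVATA and WUSCHEL signalling, shoot meristem homeobox and boundary genes, leaf polarity genes, UFO partners and floral identity genes, and trithorax group genes), 3 were measured, and none passed the test in any of the 7 comparisons (lowest adjusted p = 0.273, limma). POL, a phosphatase gene that acts downstream of CLV1, lay between 8.42 and 8.93 on the 12 arrays. YAB3, a transcription factor gene of the lower leaf side, lay between 8.50 and 8.94. CLE40, a peptide gene related to CLV3, was under background on 11 of 12 arrays, with its highest mean in clf-29 (4.35, against 3.20 in Col). The other 60 genes were not analysed here, so nothing can be said of the pathways as such.

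The genes whose signal ran most like that of each member were named by the highest Pearson correlation over the 12 arrays, among 10452 genes with at least 1 genotype mean above background. For UFO these were AT2G38710 (r = 0.937), AT3G15310 (0.918) and AT2G38640 (0.907). UFO itself was under background on all arrays of Col and brm-1 and on 2 of brm-1 clf-29. Its correlations thus rest largely on values that cannot be told from background. The mean level of AT2G38710 was 10.32 in Col and 10.80 in clf-29. For ULT1 they were the calmodulin-like gene CML30 (r = 0.941), the glycosyltransferase gene CSLA03 (0.914) and AT1G68580 (0.913). CML30 had means of 8.25 in Col, 8.24 in brm-1, 7.36 in clf-29 and 7.51 in brm-1 clf-29. For PHV they were AT1G67580 (r = 0.858), AT1G05550 (0.850) and AT4G28180 (0.835), the last of which lies next to ULT1 on chromosome 4. AT1G05550 was under background by its mean in Col, brm-1 and clf-29 (4.46, 4.44 and 4.56). The arrays share genotype and replicate batch, and the highest of so many correlations is high in any case. For CLV3, under background throughout, none was sought.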

How the data were processed

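The authors hybridised biotin-labelled RNA of 12 samples to ATH1 arrays and deposited log2 MAS5 signals. Per the labels MAS5 and the affy package were used, with versions not given in the sources used here. On the linear scale, every array had a trimmed mean of 499.7 to 499.8, the mark of MAS5 scaling. Precision is limited by the number of arrays.

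The platform annotation gave 1 gene name to 13513 of the 22810 probe sets, several to 503 and none to 8794. Names were updated through RefSeq (TAIR10.1, 13436 matched). A gene was represented by its brightest probe set. BRM and CLF themselves were not analysed here, which leaves the genotypes as the labels give them, without a check.

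All 12 arrays entered a limma fit (version 3.58.1, R 4.3.3) with a mean for each genotype, which left 8 residual degrees of freedom. Moderation by eBayes used a trend in the mean level. Tests were two-sided, p-values were adjusted over the 13356 genes by Benjamini-Hochberg, and a gene was called where the adjusted value was under 0.05. The fit was tested on simulated data. The study's 1.5-fold criterion was counted beside it. A fold against a genotype under background on all arrays is the brighter mean over the background level, given as at least that fold. Same-numbered arrays of different genotypes deviated together in 18 of 18 pairs (correlations from 0.20 to 0.71, genes above the median), and the replicate block was an alternative. All 12 pairs of replicate 1 with replicate 2 also correlated (0.16 to 0.49), while the 24 pairs with replicate 3 on one side were negative (-0.60 to -0.27). Deviations from the mean of a genotype cancel within it, so the negative values are not separate evidence. The check thus sets replicate 3 apart and does not tell number 1 from number 2.

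The named genes were the 4 members and, for each not under background throughout, the 3 genes most correlated with it. Genes of the pathway lists were to be given with values if called. As none was, the 3 measured ones are described. Members and lists were chosen with earlier results of these data known. The alternatives were quantile normalization, array median centring, leaving out dim genes, an offset of 16, a fit without the trend, a robust one, weights for arrays, the compared genotypes only, the replicate number as a block, replicate 3 as a batch term, replicates 1 and 2 alone, all probe sets, each array left out, and other background levels. Each member has 1 probe set, so no other could be tried.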

Additional observations from a re-analysis of the deposited data

How the results depend on the processing

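Of 668 refits of a member in a comparison under an alternative, 645 kept the call, 23 changed it and none reversed a called change. As 27 of the results were uncalled in the main fit, most of the 645 were results that stayed uncalled. The only called result, UFO in clf-29 against Col, kept its call in 9 of 12 other settings. It kept it in 3 of 12 fits that left out 1 array. UFO in clf-29 against Col lost its call with dim genes left out (3.71, adjusted p = 0.0633), without the trend (3.71, 0.0701) and with only the compared genotypes (3.71, 0.0845), and the difference was 1.47 with an offset of 16. Leaving out 1 array gave 3.31 to 4.36. UFO in brm-1 clf-29 against Col was called with array weights (2.60), with the replicate block (2.63) and with replicate 3 as a batch term (2.63), and leaving out 1 array gave 2.24 to 3.29. ULT1 was called within replicates 1 and 2 for clf-29 against Col (-0.69), brm-1 clf-29 against Col (-0.66), brm-1 clf-29 against brm-1 (-0.91) and clf-29 against brm-1 (-0.94). With array weights ULT1 was called for clf-29 against brm-1 (-0.78, limma adjusted p = 0.0296). That setting called 4.14% of all genes there in either direction, against 2.82% in the main fit. Leaving out 1 array gave ULT1 differences of -0.63 to -0.44 for brm-1 clf-29 against Col and -0.92 to -0.42 for clf-29 against brm-1. The replicate block changed no other call of a member. The causes were not tested. The sign of uncalled differences changed in 38 refits. The number of genotype means under background was 7 at the 90th percentile and per array, and 8 with the second highest control value.

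With left-out arrays aside, counts of called genes moved more: from 249 to between 90 (no trend) and 730 (batch term) for brm-1 against Col, from 126 to between 42 (no trend) and 735 (replicates 1 and 2) for clf-29 against Col, and from 667 to between 356 and 1553 for brm-1 clf-29 against Col. They moved from 196 to between 61 and 605 for brm-1 clf-29 against clf-29, from 29 to between 3 and 359 for brm-1 clf-29 against brm-1, from 376 to between 182 and 1003 for clf-29 against brm-1, and from 0 to 28 for the interaction. Leaving out 1 array gave, in this order, 86 to 298, 44 to 173, 299 to 795, 63 to 219, 8 to 41, 185 to 420 and 0 to 1. With the replicate block they were 638, 465, 1395, 543, 221 and 900 in this order, without the interaction. Signals at background level limit UFO and CLV3.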

Other observations

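The genes next to the members were looked up after the data were seen. AT1G30960, the gene after UFO on chromosome 1, had means of 6.41 in Col and 6.63 in clf-29 (difference 0.22 ± 0.21, limma adjusted p = 0.75). The nearest measured gene before UFO, AT1G30910, 4 genes away, had 9.48 and 9.41 (-0.07 ± 0.11, adjusted p = 0.873). On either side of ULT1 on chromosome 4, AT4G28180 (-0.35 ± 0.36, adjusted p = 0.788) and AT4G28200 (-0.16 ± 0.10, adjusted p = 0.608) did not pass the test in clf-29 against Col. None of the 8 nearest measured neighbours of the 4 members did, where 0.943% of all genes were called in either direction. The largest differences were 2.29 ± 1.02 (SE) for AT2G27240, before CLV3, and -2.89 ± 0.95 for AT1G30473, before PHV. Their limma adjusted p was 0.394 and 0.223. The means of both genes in Col and clf-29 were under background.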
